A study of Mus musculus with 24 samples.

Results

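The genes described here are 10 protein-coding neighbours on mouse chromosome 16, in order Cldn1, Cldn16, Tmem207, Il1rap, Gmnc, Ccdc50, Fgf12, Mb21d2, Plaat1 and Atp13a4, out of 20284 genes named on the array. They were chosen by their log2 difference between mgb-/- and control kidneys in earlier results of these same arrays, so every difference from control below is a description with no test. Together they were read by 15 probes, all of which passed the filter for signal above background on at least 5 of the 24 arrays. Total RNA of whole kidneys from male mice, which the labels call young adult and the methods place in the fourth or the fifth week of life, was labelled with Cy3 and hybridised to 1-colour Agilent arrays. There were 6 control kidneys (genotype mgb+/+) and 18 mgb-/- kidneys, of which 7 were graded as mild, 5 as moderate and 6 as severe hydronephrosis. Every mgb-/- kidney was hydronephrotic and every control carried the wild-type locus, so the mutation and the obstruction cannot be told apart in any difference from control.

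The megabladder (mgb) line arose by random insertion of a transgene. In background knowledge of the line, the event carried a fragment of chromosome 16 into chromosome 11 and disrupted Myocd, which encodes myocardin, a coactivator of smooth muscle genes. The bladder of homozygous mice fails to develop its muscle and does not empty, and the kidneys become obstructed. A gene inside a duplicated or moved fragment can be read in addition to, or differently from, its normal copies, which is why neighbouring genes are of interest in this line. The arrays measure RNA only and carry no information on copy number or on where the fragment ends.

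The 10 genes were not all raised. Cldn16, Tmem207 and Ccdc50 were higher in all 18 mgb-/- kidneys than in any control kidney, and Gmnc was well above background in 17 of 18 mgb-/- kidneys and in 0 of 6 controls. Fgf12 and Atp13a4 were higher in 16 of 18, and Cldn1 in 12 of 18. Of 38834 tested probes, 0.296% had all 18 mgb-/- kidneys above every control. The share of probes that reach smaller counts, here and below, was not computed, so these counts only describe the genes. Il1rap, which lies between Tmem207 and Gmnc, together with Mb21d2 and Plaat1, was not raised.

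Levels are given as log2 of the probe's processed signal minus the 75th percentile of its array, so 0 is the brightness of the probe at that percentile. A level compares kidneys for the same probe and does not rank genes against each other. In whole kidney, a change in the number of cells that express a gene and a change in RNA per cell cannot be told apart.

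The sequence around the annotated transcription start is shown for these 4 genes, Cldn16, Tmem207, Gmnc and Ccdc50, which share the clearest difference from control. All 10 genes were found in the RefSeq promoter table (build GRCm38.p6), which gives 300 bases for each start. Capitals mark 4 motifs searched on both strands. TATAAA was in 13.6% of the 32851 promoters of the table. The letters CCAAT were in 37.4% of them. The letters GGGCGG were in 35.7%. The letters GTTAAT were in 7.1%. The windows are chr16:26462885-26463184 on the plus strand for Cldn16, chr16:26526722-26527021 on the minus strand for Tmem207, chr16:26991603-26991902 on the minus strand for the upstream of 2 listed Gmnc starts, and chr16:27388706-27389005 on the plus strand for Ccdc50.
Cldn16: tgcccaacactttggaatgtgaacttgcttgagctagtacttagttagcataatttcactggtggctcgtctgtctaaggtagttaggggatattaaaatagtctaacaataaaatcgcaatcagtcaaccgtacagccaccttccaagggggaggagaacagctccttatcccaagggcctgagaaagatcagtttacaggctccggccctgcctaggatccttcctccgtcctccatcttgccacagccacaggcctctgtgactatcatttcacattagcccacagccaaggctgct
Tmem207: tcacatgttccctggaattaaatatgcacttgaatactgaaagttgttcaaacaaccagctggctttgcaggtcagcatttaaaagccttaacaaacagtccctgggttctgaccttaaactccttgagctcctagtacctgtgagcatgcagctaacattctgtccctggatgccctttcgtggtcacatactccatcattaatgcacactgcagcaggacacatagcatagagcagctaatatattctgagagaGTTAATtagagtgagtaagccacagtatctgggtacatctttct
Gmnc: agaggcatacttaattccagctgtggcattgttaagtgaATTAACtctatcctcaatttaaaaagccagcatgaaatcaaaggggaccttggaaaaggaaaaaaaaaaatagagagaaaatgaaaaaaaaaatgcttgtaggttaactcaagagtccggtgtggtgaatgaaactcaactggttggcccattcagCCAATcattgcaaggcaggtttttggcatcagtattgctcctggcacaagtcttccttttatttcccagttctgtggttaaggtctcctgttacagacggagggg
Ccdc50: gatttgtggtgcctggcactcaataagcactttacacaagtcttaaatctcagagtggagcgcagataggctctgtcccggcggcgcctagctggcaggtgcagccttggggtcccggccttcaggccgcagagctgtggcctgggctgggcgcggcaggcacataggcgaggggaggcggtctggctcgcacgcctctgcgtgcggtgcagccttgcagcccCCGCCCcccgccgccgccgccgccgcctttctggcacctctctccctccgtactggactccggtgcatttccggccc
The Cldn16 window held none of the 4 motifs. Tmem207 and this Gmnc start each held 1 GTTAAT. The Gmnc window also held 1 match to CCAAT. The Ccdc50 window held 1 match to GGGCGG. By these counts no motif was common to the 4 windows. GC content was 48.7% for Cldn16, 43% for Tmem207, 40.7% for Gmnc and 67.7% for Ccdc50.

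Cldn16 encodes claudin-16, a tight junction protein of the thick ascending limb that lets magnesium and calcium pass between cells. Its levels in the control kidneys were 0.28, 0.42, 0.53, 0.39, 0.61 and 0.38. In mgb-/- kidneys the lowest was 1.45, the median 2.17 and the highest 2.49. The lowest mutant kidney, a severe one, was still above the highest control, 0.61. The log2 difference was 1.70 (SE 0.12, n = 18 against 6), or 3.24-fold, and it lay between 1.59 and 1.85 within each of the 3 array slides, which held 2 control and 6 mgb-/- arrays each. Over the whole array, 0.296% of 38834 tested probes had every mgb-/- kidney above every control.

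Tmem207, the next gene, encodes a small transmembrane protein. Control levels were -0.17, 0.11, -0.28, -0.31, -0.62 and -0.06. The mgb-/- kidneys ran from 0.45 through a median of 2.04 to 2.74, again without overlap. The mean was 2.12 higher on the log2 scale (SE 0.26), or 4.34-fold. The spread was wider than for Cldn16, with an SD of 0.64 among mgb-/- kidneys against 0.28.

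Gmnc encodes GEMC1, a regulator that starts the multiciliated cell programme. In none of the 6 controls did its probe stand well above background, whereas it did so in 17 of 18 mgb-/- kidneys. Measured levels were -5.81, -6.15, -7.02, -6.60, -6.28 and -7.76 in controls, and in mgb-/- kidneys the lowest was -5.53, the median -3.44 and the highest -2.34. Moderate replicate 1, at -5.53, was the mgb-/- kidney not well above background, so its order against the controls is not measured. Because the control signal is only a bound, the change is given as at least 4.60-fold for this processed signal, with moderate replicate 1 as read. It is no lower limit under other background treatments. The size depends on the background treatment, since the log2 difference of 2.98 became 0.80 with normexp correction and 1.02 in the authors' normalized table. The multiciliated marker Foxj1 differed by 0.23 (SE 0.30, limma adjusted p = 0.672), and Dnah5, a ciliary motor gene dim on most arrays, was lower by a log2 difference of -1.45 (SE 0.47, limma adjusted p = 0.0454).

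Ccdc50 encodes a ubiquitin-binding protein linked to EGF receptor signalling and is read by 3 probes. For the brightest, control levels were -0.05, -0.87, -1.22, -0.18, -1.28 and -0.43, and mgb-/- levels ran from 0.07 through 1.29 to 2.19. This probe carries a transcript accession that the RefSeq table does not hold and was named from the study's own table. That table lists genes at least 2-fold different between mgb-/- and wild-type kidneys. The probe was therefore named through the same contrast, and its separation of the groups adds no support. All 3 probes separated the groups completely, with log2 differences of 1.97 (SE 0.25), 1.63 (SE 0.09) and 1.91 (SE 0.14). The second probe was the most even of the member probes across mutants, with an SD of 0.13 over the 18 mgb-/- kidneys, smaller than in all but 2.38% of tested probes.

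**Figure D1:**
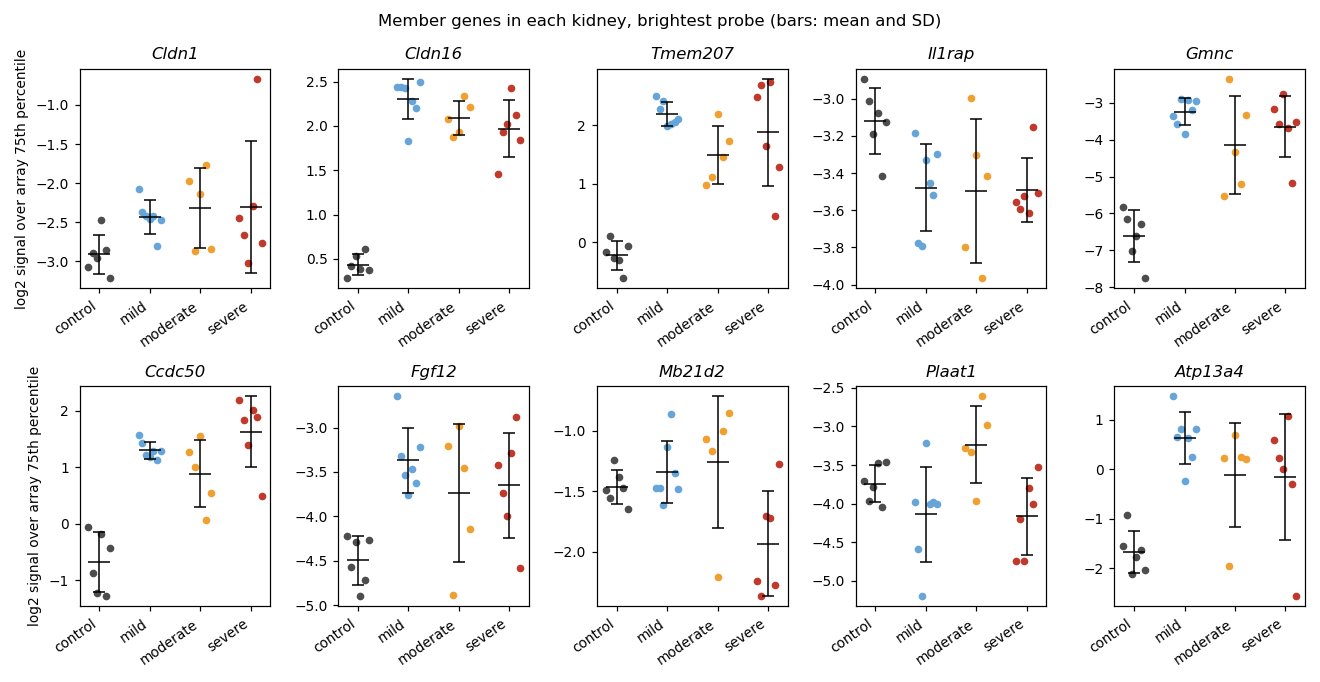
Level of each member gene in every kidney (y axis, log2 signal over the array's 75th percentile) by group (x axis: control, mild, moderate and severe hydronephrosis), with mean and SD. Cldn16, Tmem207 and Ccdc50 show no overlap between the 6 control and 18 mgb-/- kidneys, the Gmnc signal of the controls is at background, and Il1rap, Mb21d2 and Plaat1 overlap.

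Fgf12 encodes an intracellular FGF homologous factor that modulates sodium channels. Its brighter probe read -4.23, -4.57, -4.29, -4.90, -4.71 and -4.26 in controls, and in mgb-/- kidneys the lowest was -4.89, the median -3.46 and the highest -2.65. The log2 difference was 0.93 (SE 0.24), or 1.91-fold. In 16 of 18 mgb-/- kidneys it was above the highest control, and moderate replicate 2 at -4.89 and severe replicate 6 at -4.58 were within the control range. The dimmer probe was well above background in no control and in 11 of 18 mgb-/- kidneys, so it gives no measured fold. The difference of the brighter probe was 0.46 with normexp correction and 0.55 in the authors' normalized table.

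Atp13a4 encodes a P5-type transport ATPase and closes the series. Its brighter probe read -1.55, -0.92, -2.12, -1.79, -1.64 and -2.04 in controls, against a lowest value of -2.57, a median of 0.25 and a highest of 1.47 in mgb-/- kidneys. The log2 difference was 1.83 (SE 0.41), or 3.56-fold, and its second probe gave 1.35 (SE 0.34). The same 2 kidneys stood out, with -1.97 in moderate replicate 2 and -2.57 in severe replicate 6, and the remaining 16 were above every control. In these 2 kidneys Cldn16 was nevertheless 1.88 and 1.85, and Ccdc50 1.00 and 0.49, above every control. Acsm3, a medium-chain acyl-CoA synthetase gene named after its values were seen, read 6.80 and 6.77 there, within the control range of 6.05 to 7.00, and 4.92 or less in the other mgb-/- kidneys. The part of whatever Acsm3 marks in the Fgf12 and Atp13a4 values was not tested.

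**Figure D2:**
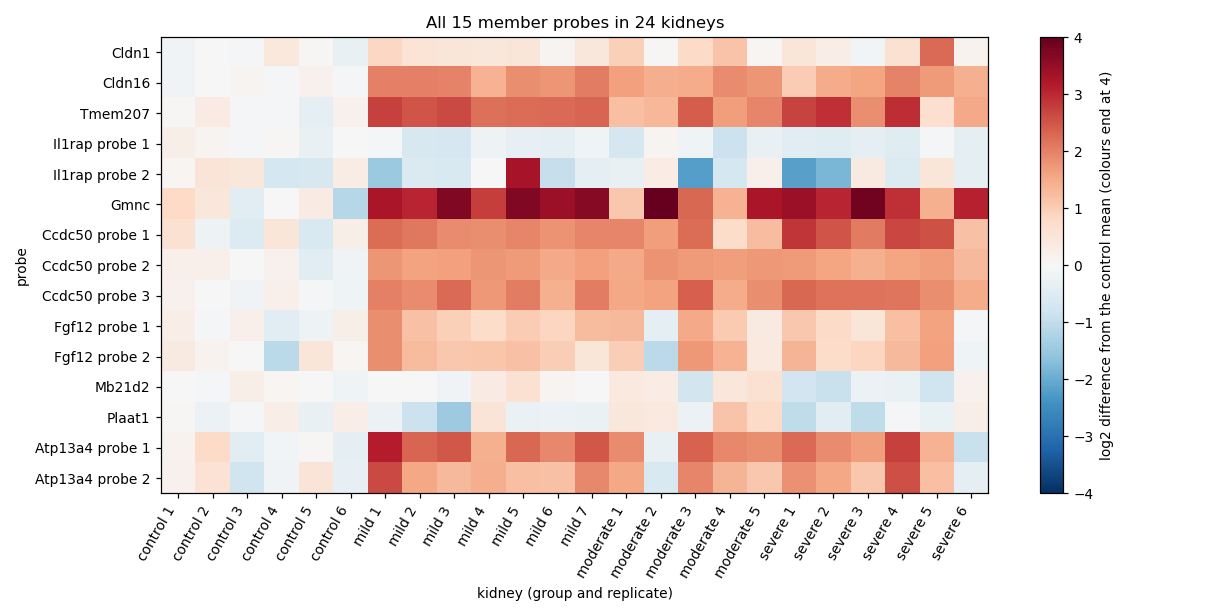
Difference of each of the 15 member probes (rows) from its control mean (log2, colour) in all 24 kidneys (columns). The Cldn16 and Ccdc50 rows are raised across all 18 mgb-/- kidneys, while Fgf12 and Atp13a4 stay near control in moderate replicate 2 and severe replicate 6.

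Of the remaining genes, Cldn1 was higher by less than 2-fold and the others were little changed or lower. Cldn1, a widely expressed tight junction claudin, read -3.07, -2.89, -2.96, -2.48, -2.86 and -3.22 in controls and from -3.03 through -2.43 to -0.66 in mgb-/- kidneys. Its log2 difference was 0.55 (SE 0.23), with overlapping groups and 12 of 18 mgb-/- kidneys above the highest control. Severe replicate 5 was the single kidney far above the rest, at -0.66.

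Il1rap encodes the accessory chain of the interleukin-1 receptor. Controls read -2.89, -3.01, -3.19, -3.08, -3.42 and -3.13, and mgb-/- kidneys ran from -3.97 through -3.51 to -3.00. The difference was -0.37 (SE 0.12), the opposite direction to its neighbours on both sides, and 11 of 18 mgb-/- kidneys were below the lowest control. Its second probe was well above background on 5 arrays only and read -0.42 (SE 0.51), with 1 mild kidney at -2.40. With normexp correction the difference of the first probe was -0.11.

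Mb21d2, a relative of the DNA sensor cGAS, ranged from -1.65 to -1.24 in controls and from -2.37 to -0.85 in mgb-/- kidneys, with a log2 difference of -0.05 (SE 0.20). Plaat1, which encodes a phospholipid-modifying enzyme, ranged from -4.04 to -3.46 in controls and from -5.20 to -2.61 in mgb-/- kidneys, with -0.16 (SE 0.27). For Mb21d2, 6 mgb-/- kidneys were above the highest control and 6 below the lowest, and for Plaat1 the counts were 5 and 5.

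By the rule of an adjusted p below 0.05 and at least a 2-fold difference, 5 of the 10 genes by their brightest probe were higher in mgb-/- kidneys (Cldn16, Tmem207, Gmnc, Ccdc50 and Atp13a4) and 0 lower, where 1.62% of tested probes were higher and 1.18% lower. Their median log2 difference was 1.31, against 0.01 over all tested probes. These counts restate the choice of the genes.

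**Figure D3:**
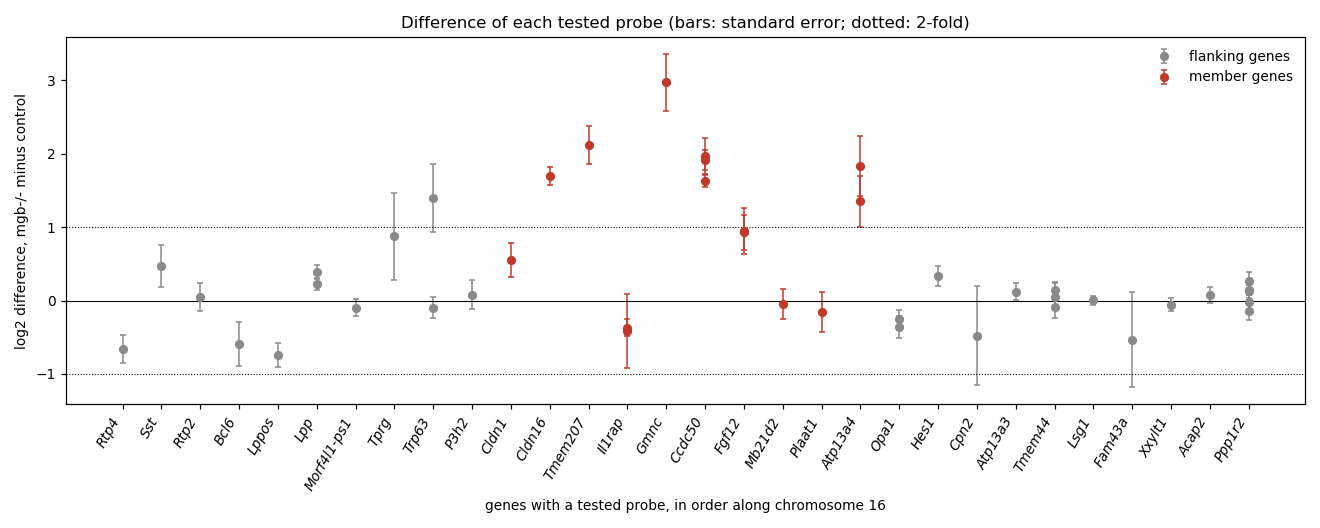
Log2 difference between mgb-/- and control kidneys with its standard error (y axis) for every tested probe, with genes in their order along the chromosome (x axis). Cldn16 stands at 1.70 and Tmem207 at 2.12, Il1rap, Mb21d2 and Plaat1 lie near or below 0, and no flanking gene passes both thresholds. The Gmnc point is drawn at its fitted value. For it the processed signal gives only a bound, at least 4.60-fold, which is no lower limit under other background treatments.

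Of 14 other annotated genes between Cldn1 and Atp13a4, 4 have a probe and 0 passed the filter. Ostn, Gm10823 and Atp13a5 were well above background on no array. Uts2b, which encodes a urotensin-related peptide and lies next to Ccdc50, was well above background in mild replicate 1 only, at -3.69, where controls ran from -8.11 to -7.49. It therefore gives no measured level in the other kidneys.

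The nearest tested genes outside the 10 were not called. P3h2, the collagen prolyl hydroxylase gene next to Cldn1, differed by 0.08 (SE 0.20, limma adjusted p = 0.828), and Trp63 by -0.10 (SE 0.15, limma adjusted p = 0.714) on its brighter probe. The dimmer Trp63 probe, a gene of basal urothelium, gave 1.39 (SE 0.47, limma adjusted p = 0.052), and it was higher in severe than in mild kidneys by 1.92 (SE 0.40, limma adjusted p = 0.0264). Beyond Atp13a4, Opa1 differed by -0.36 (SE 0.15, limma adjusted p = 0.115) and Hes1 by 0.33 (SE 0.14, limma adjusted p = 0.117). Urothelium markers, which include the uroplakins, summed to 6.21 to 18.4 times the 75th percentile signal in controls, 4.92 to 57.1 in mild and 70.7 to 231 in severe kidneys, and their part in the Trp63 value was not tested.

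Myocd, on chromosome 11, differed by 0.59 between mgb-/- and control kidneys (SE 0.33, limma adjusted p = 0.258). Probes that the array names by a chromosome 16 interval, in the array's own coordinates, were also examined: 324 of 579 passed the filter, 8 were called higher and 10 lower, where 1.62% and 1.18% of all tested probes were. The counts were 1 higher and 2 lower with normexp correction, and 1 higher and 4 lower with the authors' normalized values. The lower probes included 9 in 2 overlapping intervals, chr16:23989160-23992539 and chr16:23992037-24001037, and 7 of the 8 higher ones lay in chr16:34524589-34573439. The count of higher probes fell to 0 without control replicate 3.

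The comparison of grades within mgb-/- kidneys was not used to choose these genes. With few kidneys per grade and few probes called over the whole array, 0 calls cannot show that a gene was independent of grade. None of the 10 genes was called higher or lower between severe and mild kidneys, where 0.363% of probes were higher and 0.00773% lower. The adjusted p ran from 0.271 to 0.987 (limma). An unadjusted p under 0.05 was reached by 2 of 10, Cldn16 and Mb21d2, and by 10.4% of all tested probes. The slope over the 3 grades gave adjusted p from 0.545 to 0.996 (limma), where 0.144% of probes passed. Between moderate and mild kidneys 0 genes were called, where 0% of probes were, and 2 had an unadjusted p under 0.05, as did 6.57% of probes. For severe against moderate the count was also 0, where 0.00258% of probes were higher and 0% lower, and 3 had an unadjusted p under 0.05, as did 10.7% of probes (limma).

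For Cldn16 the severe minus mild log2 difference was -0.34 (SE 0.13, limma adjusted p = 0.374), and for Tmem207 it was -0.32 (SE 0.29, limma adjusted p = 0.735). For Gmnc it was -0.40 (SE 0.44, limma adjusted p = 0.79) and for Ccdc50 0.33 (SE 0.27, limma adjusted p = 0.694). Cldn16 was 1.87 above control in the mild group, 1.65 in the moderate and 1.53 in the severe group.

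The largest severe minus mild difference was that of Atp13a4, -0.79 (SE 0.46, limma adjusted p = 0.574), and the next that of Mb21d2, -0.59 (SE 0.20, limma adjusted p = 0.271). Mb21d2 was below the lowest control in 5 of 6 severe kidneys and in none of the mild ones. Plaat1 was 0.90 higher in moderate than in mild kidneys (SE 0.28, limma adjusted p = 0.54) and lower in severe than in moderate kidneys by 0.93 (limma adjusted p = 0.288), and neither passed the test. Against control, the contrast that chose the genes, the same call rule gave 6 genes higher in the mild group (1.02% of probes), 4 in the moderate group (0.404%) and 5 in the severe group (2.72%), which is a description and no test.

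**Figure D4:**
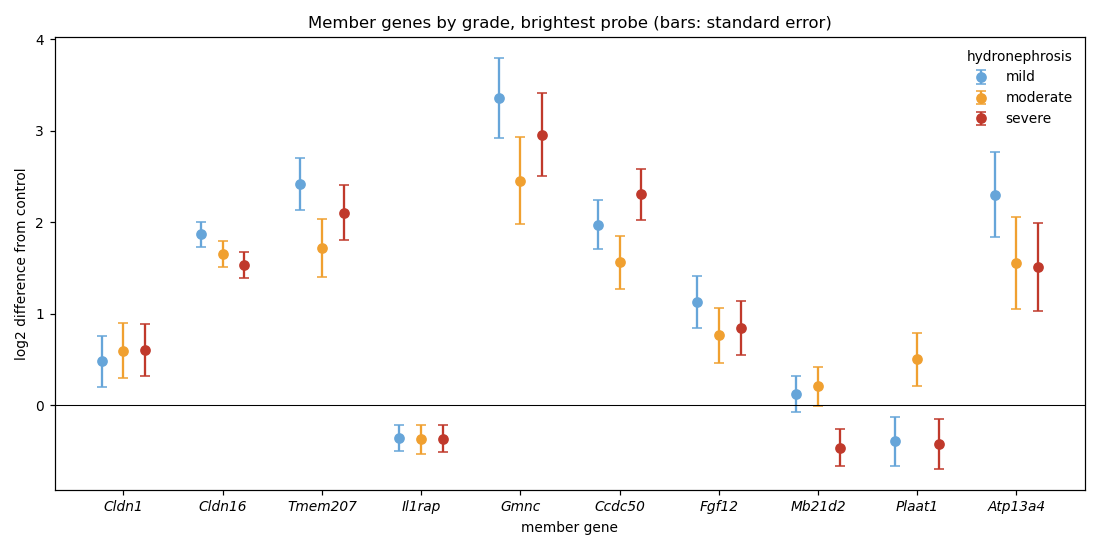
Log2 difference from control with its standard error (y axis) for each member gene (x axis) in mild, moderate and severe hydronephrosis. The grades lie close together for Cldn16, at 1.87, 1.65 and 1.53.

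How far the genes varied together was examined over the 18 mgb-/- kidneys, by the brightest probe. Of 45 pairs, 4 had a Pearson r past the threshold (permutation test, two-sided, 100000 resamples, Benjamini-Hochberg adjusted), 2 positive and 2 negative. Fgf12 and Atp13a4 had r = 0.80 and rho = 0.62 (permutation p = 0.00027 and 0.00632, adjusted p = 0.0041 and 0.041), but r was 0.49 without the 2 kidneys farthest from the Fgf12 median. Cldn1 and Fgf12 had r = 0.67 and rho = 0.83 (permutation p = 0.0036 and 6e-05, adjusted p = 0.041 and 0.0027), with r = 0.81 without the farthest 2.

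The negative pairs were Cldn1 with Gmnc and Ccdc50 with Mb21d2. Cldn1 and Gmnc had r = -0.76 and rho = -0.71 (permutation p = 0.00015 and 0.00142, adjusted p = 0.0041 and 0.015), and r = -0.66 without the farthest 2. Gmnc was lowest in moderate replicate 1, moderate replicate 4 and severe replicate 5, at -5.53, -5.21 and -5.17. Cldn1 read -1.97, -1.77 and -0.66 there. The Gmnc value of moderate replicate 1 was not well above background, and the part of these kidneys in r was not tested. Ccdc50 and Mb21d2 had r = -0.75 and rho = -0.78 (permutation p = 0.00027 and 0.0002, adjusted p = 0.0041 and 0.0045), and r = -0.71 without the farthest 2. This value is for the brightest Ccdc50 probe only, and the other Ccdc50 probes were not correlated. From mild to severe kidneys the mean of that probe went from 1.30 to 1.63 and that of Mb21d2 from -1.34 to -1.93. The second Ccdc50 probe went from 0.93 to 0.81 and the third from 0.18 to 0.27. The part of the grade in r was not tested. The number of pairs depended on the scaling, with 12 under quantile normalization and 7 with the array median.

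Over the same 18 kidneys and 13400 other genes seen on all arrays, the genes most like Cldn16 were Shroom2 (r = 0.90), Ctps2 (r = 0.87) and Foxd2os (r = 0.84). Those most like the brightest Ccdc50 probe were Ubn2 (r = 0.90), Zfp329 (r = 0.89) and 8430431K14Rik (r = 0.88). None of the 10 genes was among those named. Gmnc was not well above background on all arrays, so it was not compared.

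The relatives of these genes, mostly elsewhere in the genome, were listed by gene family. Of 34 tested relatives, 6 were higher and 1 lower at an adjusted p below 0.05, where 11.7% of all probes passed. The median log2 difference of the 34 was 0.25, against 0.01 over all tested probes. Of the 34, 3 were also at least 2-fold higher, where 1.62% of all tested probes were. The 3 were Cldn4, a collecting duct claudin, at 1.79 (SE 0.48, limma adjusted p = 0.0186), Cldn14, a claudin that opposes claudin-16 and lies far along the same chromosome, at 1.36 (SE 0.35, limma adjusted p = 0.016), and Il1r2, a decoy interleukin-1 receptor, at 2.46 (SE 0.69, limma adjusted p = 0.0235). Cldn9 was lower by a log2 difference of -0.75 (SE 0.18, limma adjusted p = 0.0095). The collecting duct marker Aqp2 was also higher, by 0.91 (SE 0.25, limma adjusted p = 0.0212). The 2 collecting duct markers summed to a median of 55.3 times the 75th percentile signal in controls (41.9 to 68.1) and 81.1 in mgb-/- kidneys (37.3 to 117), and their part in the Cldn4 value was not tested. With normexp correction 1 relative was called at least 2-fold higher. Il1r2 lost its adjusted p below 0.05 with normexp correction, in the authors' table, with the replicate block and without control replicate 1 or 5, and Cldn4 lost it without control replicate 4.

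Cldn19 encodes claudin-19, the partner of claudin-16, and differed by 0.05 (SE 0.14, limma adjusted p = 0.849). Among 16 genes of the thick ascending limb and of magnesium handling, 1 was called at least 2-fold higher, Cldn14, and 0 were called lower, where 1.62% of tested probes were higher and 1.18% lower. The median log2 difference of the 16 was 0.07. With normexp correction and in the authors' normalized table its difference was 0.83 and 0.85, under 2-fold.

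Umod, which encodes uromodulin, a defining marker of this segment, differed by 0.01 (SE 0.10, limma adjusted p = 0.974) and Slc12a1, the sodium-potassium-chloride cotransporter, by 0.16 (SE 0.23, limma adjusted p = 0.687). The summed signal of these 2 markers was 295 to 356 times the 75th percentile in controls and 228 to 406 in mgb-/- kidneys. The claudin-16 partner and the segment's defining markers were therefore near control levels in kidneys where Cldn16 was 3.24-fold higher. Adrenal markers summed to at most 0.104 in controls and up to 66.6 in mild replicate 4 and 54.9 in moderate replicate 1, and smooth muscle markers to at most 13.5 in controls and up to 48.3 in severe replicate 5. Their part in the values above was not tested.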

How the data were processed

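RNA of 24 kidneys was measured on 1-colour arrays. Intensity values were deposited per array by the authors as Agilent Feature Extraction 10.10 output, with the flags for signal above background, together with a normalized intensity table of the authors. The processed signal was log2 transformed and each array's 75th percentile was subtracted (496 to 968 in intensity). The share of probes well above background was 55.1% to 70.7% per array, and precision is limited by the number of arrays. A probe entered the tests if it passed that flag on 5 or more arrays, which left 38834 of 55681. Probes were named by RefSeq accession (26762), and 1 Ccdc50 probe from the study's table of genes at least 2-fold different between mgb-/- and wild-type kidneys. The brightest probe stands for a gene. Groups were compared with limma 3.58.1 in R 4.3.3, with Benjamini-Hochberg adjustment over all kept probes. The code was tested on simulated data. The p-values measure the spread between these kidneys, and whether a mouse gave 1 kidney or both is not stated in the labels. Named genes were all 10 members, all genes between them, the 2 nearest tested genes outside, list genes that passed the test, and the 3 genes most correlated with Cldn16 and with Ccdc50. The members and lists were chosen with earlier results of these data known. Alternatives changed scaling, background, filter, blocks and single kidneys. Some genes that this rule would name are not reported here.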

Additional observations from a re-analysis of the deposited data

Results flagged for a closer look

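Of 40 sets of values (10 genes in 4 groups), 4 held 1 kidney far from the others, where chance alone flags about 1 in 20. Severe replicate 5 was far above the other severe kidneys for Cldn1, at -0.66 against -2.29 for the next, and for Il1rap, at -3.16 against -3.51. Mb21d2 was -2.20 in moderate replicate 3, where the next moderate kidney was -1.17. Atp13a4 was -1.97 in moderate replicate 2, where the next was 0.20. Uts2b, whose probe was left out of the tests as too dim, was -3.69 in mild replicate 1, where the highest control was -7.49.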

How the results depend on the processing

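The count of 10 genes called higher in mgb-/- kidneys was 5, and 4 to 6 over all alternatives. It was 4 with normexp correction and with the filter on all 24 arrays, and 6 without moderate replicate 2, where Fgf12 reached 1.01. Called lower stayed at 0, and no gene passed the test of severe against mild in any alternative. With the replicate number as a block, the genes called higher in moderate kidneys were 1 in place of 4. The labels do not say whether replicate numbers pair the kidneys. Correlations of deviations ran from -0.64 to 0.54 over 33 same-numbered pairs, with a median of -0.01 and 11 over 0.1. Of 24 kidneys, 5 matched best with their own number. The number of such matches without pairing was not computed, so this check cannot exclude pairing. With normexp correction and in the authors' table, relatives called higher were 1 and 1 in place of 3, thick limb genes called higher 0 and 0 in place of 1, interval-named probes called higher 1 and 1 in place of 8, and called lower 2 and 4 in place of 10. Interval-named probes called higher were 5 with quantile normalization, and with the filter on all 24 arrays or 1 probe per gene they were 3 and 2 higher and 5 and 1 lower. Leaving out 1 kidney gave 0 to 10 higher and 3 to 10 lower. Correlated pairs were 12 with quantile normalization and 7 with the array median, in place of 4. Signs of small severe minus mild differences turned for Il1rap (0.11 with normexp, 0.018 with the replicate block, -0.080 to 0.037 leaving out 1 kidney), Fgf12 (0.014 with normexp), Plaat1 (0.11 with normexp, 0.078 with the slide as a block, -0.20 to 0.13 leaving out 1 kidney) and Cldn1 (-0.20 without severe replicate 5, up to 0.27 without severe replicate 3). The causes were not tested.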
